A study of Mus musculus with 32 samples.

Results

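Transcript levels of 8 mast cell and basophil genes, Ms4a2, Fcer1a, Fcer1g, Prss34, Mcpt8, Cpa3, Csrp3 and Hdc, were followed in 4 sorted bone marrow progenitor populations of mice. They were taken by gene symbol from a table of 55487 genes. Each of the 8 symbols matched a single protein-coding gene. Total RNA was sequenced from 32 libraries, in which 8 mice each gave an LSK, a CMP, a GMP and a MEP library. The gate names are the labels' own and stand in common usage for lineage-negative Sca-1-positive c-Kit-positive cells, common myeloid progenitors, granulocyte and monocyte progenitors, and megakaryocyte and erythroid progenitors. The labels do not name the antibodies of the sort. The 4 control mice were Mx1-Cre- Cxadrfl/fl and the 4 Cxadr-ko mice were Mx1-Cre+ Cxadrfl/fl, so that both genotypes carried the floxed allele of Cxadr, the gene of the coxsackievirus and adenovirus receptor. Mx1-Cre is driven by an interferon-inducible promoter that acts in many cell types besides blood cells. The labels name no inducing treatment and give neither age nor sex.

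Mast cells and basophils carry the high-affinity IgE receptor, FceRI. In mice Fcer1a encodes its IgE-binding alpha chain, Ms4a2 its signal-amplifying beta chain and Fcer1g the gamma chain, which also serves other Fc receptors of myeloid and natural killer cells. Hdc encodes histidine decarboxylase, which makes histamine, and Cpa3 encodes carboxypeptidase A3, a granule enzyme. Mcpt8 and Prss34 encode serine proteases known as basophil products in the mouse. Csrp3 encodes a LIM domain protein best known from striated muscle. Both lineages arise in the bone marrow from progenitors that are commonly placed within or near the granulocyte and monocyte compartment, and GATA factors act in both.

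Promoter windows of the 8 genes were read from RefSeq (GRCm38.p6), from 250 bases before to 50 bases after the annotated start. All 8 genes matched, Csrp3 with 2 starts, which gave 9 windows. Because GATA factors act in both lineages, the letters GATA with A or T before them and A or G after them were searched on both strands. They were found in 6 of the 9 windows, belonging to 6 of the 8 genes, and in 29.8% of the 32851 promoters of the same length in the table. The windows of Fcer1g and Mcpt8 and the upstream window of Csrp3 held none of these letters. The E-box letters CANNTG were found in 8 of the 9 windows and in 72.3% of all promoters, the window of Ms4a2 being the one without them. The ETS core GGAA was found in 9 of 9 and in 96% of all promoters. These are matches of letters, and binding was not measured. Below are the window with the most GATA matches (Ms4a2), that of the gene highest per length in the GMP gate (Cpa3), and those of the 2 basophil proteases, which differed from each other in their pattern over the gates. They are written 5′ to 3′ on the strand of the gene, and capitals mark the GATA letters on either strand.
Ms4a2, chr19:11623670-11623969, minus strand: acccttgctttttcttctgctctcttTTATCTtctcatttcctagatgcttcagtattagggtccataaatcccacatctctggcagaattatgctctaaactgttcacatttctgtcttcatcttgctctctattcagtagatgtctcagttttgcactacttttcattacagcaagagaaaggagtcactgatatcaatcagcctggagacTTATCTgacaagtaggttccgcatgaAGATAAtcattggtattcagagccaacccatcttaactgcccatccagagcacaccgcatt
Cpa3, chr3:20242132-20242431, minus strand: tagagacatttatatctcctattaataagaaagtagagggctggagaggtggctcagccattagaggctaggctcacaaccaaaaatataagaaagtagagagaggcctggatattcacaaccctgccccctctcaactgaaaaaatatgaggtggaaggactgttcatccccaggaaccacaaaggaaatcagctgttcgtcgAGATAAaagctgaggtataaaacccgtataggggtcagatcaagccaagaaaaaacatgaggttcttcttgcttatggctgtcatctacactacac
Prss34, chr17:25298144-25298443, plus strand: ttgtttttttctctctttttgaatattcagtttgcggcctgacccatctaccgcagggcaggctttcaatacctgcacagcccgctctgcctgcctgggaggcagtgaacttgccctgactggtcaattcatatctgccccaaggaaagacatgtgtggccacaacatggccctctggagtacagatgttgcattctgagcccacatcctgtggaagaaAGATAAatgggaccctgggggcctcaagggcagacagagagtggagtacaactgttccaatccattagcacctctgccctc
Mcpt8, chr14:56085148-56085447, minus strand: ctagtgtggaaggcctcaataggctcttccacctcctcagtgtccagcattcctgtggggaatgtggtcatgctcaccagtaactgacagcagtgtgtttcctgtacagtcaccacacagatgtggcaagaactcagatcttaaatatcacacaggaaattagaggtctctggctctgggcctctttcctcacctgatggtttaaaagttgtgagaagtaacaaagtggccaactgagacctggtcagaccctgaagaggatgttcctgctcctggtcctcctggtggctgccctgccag
The 3 matches of Ms4a2 began 224, 37 and 11 bases before the RefSeq start. That of Cpa3 began 46 and that of Prss34 31 bases before it.

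The libraries held 8313300 to 13641248 reads over all genes. Values are the authors' normalized counts, in which 1 read was worth 0.814 to 1.28. Cxadr was low in every group. Its values ran from 12 to 38.4 in control GMP libraries and from 12.4 to 20.9 in Cxadr-ko GMP libraries. The lowest were those of the Cxadr-ko MEP libraries (0 to 15.5, against 6.67 to 27.7 in control), and the 2 genotypes overlapped in each gate. These counts cover the whole gene, and the labels do not say which exon is floxed, so they do not check the genotype labels. Summed markers of stem and multipotent progenitors were highest in LSK (10917 to 14073 normalized counts over 8 genes) and those of neutrophil and monocyte progenitors in GMP. Erythroid markers were low in the libraries labelled MEP, where 10 genes summed to 486 to 1107, and megakaryocyte markers were lower there (658 to 1181 over 8 genes) than in LSK (3293 to 6134). The MEP gate is therefore named here by its label only. The LSK libraries of mouse 1 of both genotypes stood apart by B lineage transcripts, which reached 919430 normalized counts over 9 genes. These transcripts were not confined to mouse 1. Their LSK sums had group medians of 52484 in control and 71392 in Cxadr-ko mice, against 5957 and 6279 in CMP. Leaving mouse 1 out kept 8 of 8 genes called between GMP and LSK in both genotypes.

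All 8 genes were highest in the GMP gate and low in LSK. In each of the 8 mice the GMP library had the highest value of the 4 gates for every one of the 8 genes. The LSK library had the lowest value in 8 of 8 mice for 7 genes and in 6 of 8 for Prss34. Together the 8 genes took a median of 0.205% of all normalized counts in GMP, against 0.10% in MEP, 0.0913% in CMP and 0.0148% in LSK. In bulk samples fewer cells of a type and less RNA per cell cannot be told apart.

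**Figure D1:**
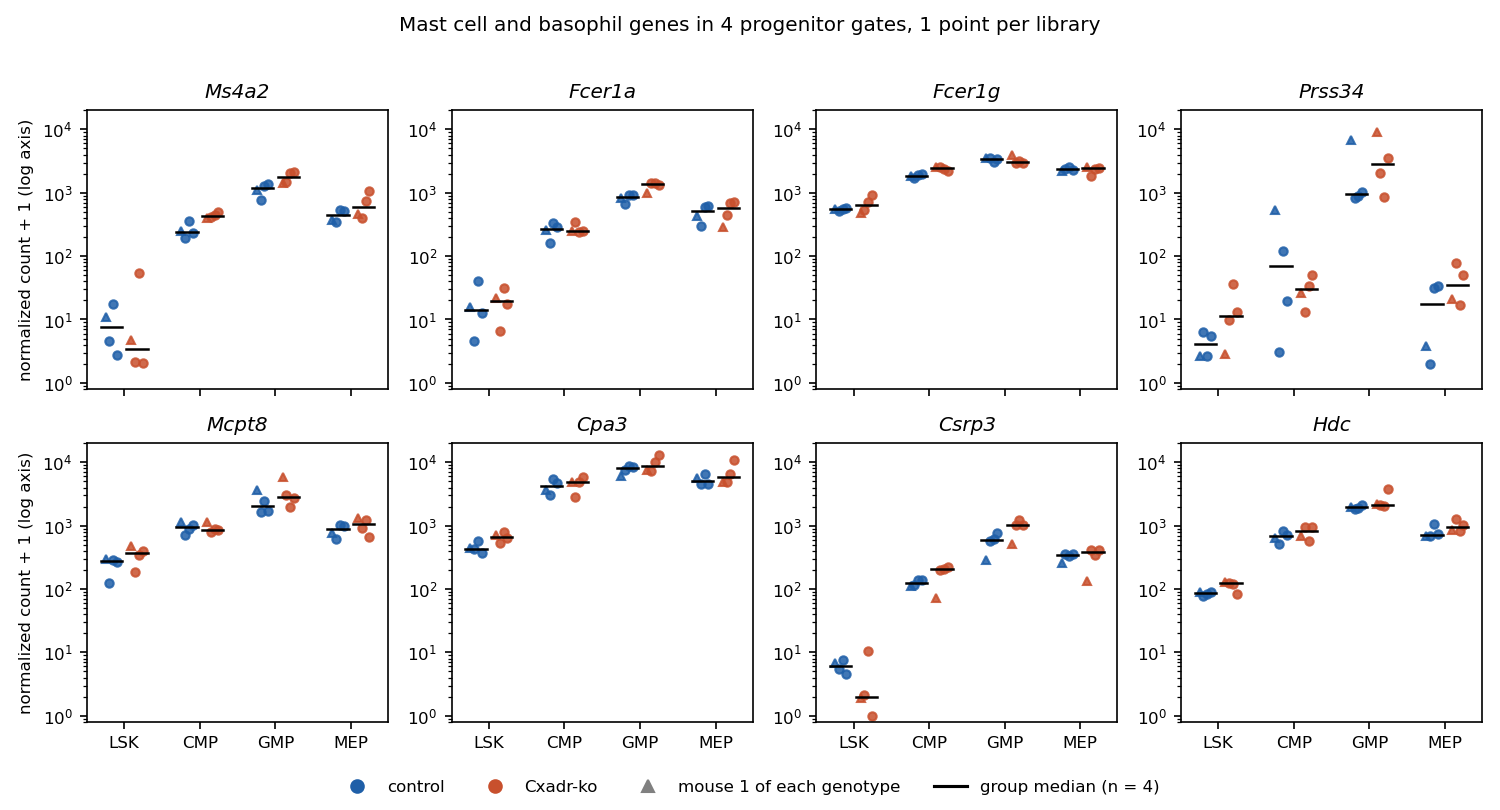
Normalized counts + 1 on a log axis for each of the 8 genes in the LSK, CMP, GMP and MEP gates. Each point is 1 library, triangles are mouse 1 of each genotype, and black lines are group medians (n = 4). GMP values exceed those of the same mouse's other gates for all 8 genes, and Prss34 spans 810.3 to 9134 within GMP.

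The gates were compared within mice by limma on log2(normalized count + 1), and a gene was called when its Benjamini-Hochberg adjusted p over all genes was under 0.05. Between GMP and LSK 8 of 8 genes were called higher in GMP in control mice, beside 19.1% of the 17218 genes tested. The same comparison in Cxadr-ko mice called 8 of 8, beside 14.5% of 17257 genes. Within LSK, Ms4a2, Prss34 and Csrp3 did not reach 10 normalized counts in 4 libraries. They passed the filter on low values through the other gates. The size of their differences from LSK depends on the pseudocount of 1, and their calls against LSK lean on that filter. Against CMP, 8 of 8 were called higher in GMP in control mice and 6 of 8 in Cxadr-ko mice, beside 6.38% and 3.57% of all genes. Against MEP, 7 of 8 and 5 of 8 were called, beside 6.65% and 4.11%, and the latter count was 3 without Cxadr-ko mouse 1 or with no filter on low values. Against LSK, MEP was called higher for 7 of 8 genes in both genotypes, beside 12.6% and 8.19% of all genes. CMP was called higher than LSK for 8 of 8 in control and 7 of 8 in Cxadr-ko mice, beside 10.7% and 7.41%. Prss34 was the gene that was not called. Between MEP and CMP none was called in either genotype, beside 0.00581% and 0% of all genes. The number of the 8 genes with an unadjusted p under 0.05 was then 5 in control and 2 in Cxadr-ko mice. Over all genes it was 2041 of 17218 and 1408 of 17257. Of the 8, edgeR called 1 and 0, beside 6 and 0 genes of the whole table. DESeq2 called 4 and 0 of the 8, beside 214 and 70 genes. The median log2 difference between GMP and LSK over the 8 genes was 5.21 in control mice, against -0.04 over all genes tested. It was 1.64 against CMP and 1.08 against MEP, where all genes had medians of -0.03 and -0.00.

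Of the chains of FceRI, the alpha and beta chain genes were nearly absent from LSK and the gamma chain gene was not. Positions of genes are given in GRCm38. Fcer1a, the alpha chain (chr1:173221284-173227214, minus strand), ran from 3.59 to 39.1 normalized counts over the 8 LSK libraries, with a median of 15.6. It had medians of 252 in CMP, 959 in GMP and 514 in MEP. LSK did not overlap any other gate, whereas the lowest GMP library (652) lay below the highest MEP library (716). In control mice Fcer1a was 5.89 ± 0.30 (SE) higher in GMP than in LSK on the log2 scale and 1.72 ± 0.30 higher than in CMP (limma adjusted p = 2.2e-09 and 0.0012). The difference from MEP, 0.82 ± 0.30, was not called in control mice (adjusted p = 0.079). In Cxadr-ko mice it was 1.35 ± 0.37 and was called (adjusted p = 0.036). That call was lost under quantile normalization, with no filter on low values and without Cxadr-ko mouse 1, 3 or 4, with adjusted p up to 0.15, while in control mice the difference was called without control mouse 3, with a pseudocount of 5, by edgeR and by DESeq2 (adjusted p down to 0.0021).

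Ms4a2, the beta chain (chr19:11615523-11623719, minus strand), had medians of 1402 in GMP, 483 in MEP, 375 in CMP and 3.67 in LSK. A single LSK library, that of Cxadr-ko mouse 3, reached 53.6, and the other 7 lay between 1.03 and 16.3. Within mice GMP exceeded CMP by 3.55 to 6.13 times and MEP by 1.99 to 3.75 times. The log2 difference between GMP and CMP was 2.15 ± 0.34 in control mice (adjusted p = 0.00059). In Cxadr-ko mice it was 1.98 ± 0.66 and was not called (adjusted p = 0.093). It was called without Cxadr-ko mouse 3 (adjusted p = 0.019), with a pseudocount of 5 and by edgeR, and its value stayed between 1.92 and 2.04 under the alternatives tried. Against MEP the difference of 1.36 ± 0.34 in control mice (adjusted p = 0.014) was not called without control mouse 1 or 2, with adjusted p up to 0.076. Of the 50-base words of its transcripts 2.1% also occur in another gene, mostly Ms4a4b. The alpha to beta ratio of normalized counts, a quantity that includes transcript length, had medians of 0.718 in GMP, 0.821 in CMP and 1.03 in MEP. In LSK it ran from 0.571 to 16 with a median of 3.70, where Ms4a2 rested on 1 to 56 reads a library.

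Fcer1g, the gamma chain (chr1:171229572-171234365, minus strand), had the smallest differences of GMP from each other gate among the 8 genes, in both genotypes. Its medians were 3244 in GMP, 2391 in MEP, 2094 in CMP and 551 in LSK. Every GMP library (2916 to 3969) lay above every library of the other gates, whose highest value was 2562. The log2 difference between GMP and MEP was 0.52 ± 0.07 in control mice (adjusted p = 0.00014). In Cxadr-ko mice it was 0.48 ± 0.17 and was not called (adjusted p = 0.096; 0.018 by DESeq2), nor was the difference of 0.42 from CMP (95% interval 0.06 to 0.78; adjusted p = 0.16). Fcer1g partners, receptors that signal through the gamma chain or are close to those that do, were 13 genes, of which 9 were tested in control mice. Between GMP and LSK 3 were called higher in GMP and none lower, with a median log2 difference of 0.61 against -0.04 over all genes tested, of which 19.1% were called higher and 41.9% in either direction. Against CMP 2 were called higher and 1 lower, with a median of -0.25, and against MEP 2 higher and 2 lower, with a median of -0.19, beside 14.2% and 14.9% of all genes in either direction. Fcgr3, which encodes an IgG receptor of the class used to sort GMP in common protocols, was 6.41 ± 0.21 higher in GMP than in LSK on the log2 scale (adjusted p = 2.1e-11), and Clec7a, which encodes the beta-glucan receptor dectin-1, was 3.81 ± 0.38 higher (adjusted p = 1.6e-06). Cd200r4, a gene of the CD200 receptor family, was lower in GMP than in CMP and MEP (-1.40 ± 0.28 and -2.19 ± 0.28, adjusted p = 0.0042 and 0.00011), and Ncr1, the gene of a natural killer cell receptor, was lower than in MEP (-3.99 ± 1.10, adjusted p = 0.025). These values are of control mice. In Cxadr-ko mice no Fcer1g partner was called lower in GMP than in CMP or MEP. Fewer genes of the whole table were called there, 1353 and 1555 of 17257, against 2443 and 2574 of 17218 in control mice. A call in 1 genotype only is not a test of a difference between genotypes.

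The 2 basophil proteases differed from each other in where they were expressed. Mcpt8 (chr14:56082166-56085273, minus strand) was measured in every library, with medians of 2564 in GMP, 963 in MEP, 879 in CMP and 290.5 in LSK. Prss34 (chr17:25298394-25300165, plus strand) was mostly found in GMP. Its median was 1519 there, against 4.91 in LSK, 29.0 in CMP and 25 in MEP. The Prss34 to Mcpt8 ratio had a median of 0.628 in GMP and of 0.0223 to 0.0295 in the other 3 gates, as shown in the plot of both genes by library.

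Prss34 also had, of the 8 genes, the widest ratio of the highest to the lowest GMP library. In GMP of control mice 1 to 4 it had 6886, 810.3, 896 and 1023 normalized counts, and in GMP of Cxadr-ko mice 1 to 4 it had 9134, 2015, 850.2 and 3582. Mouse 1 of each genotype was highest, and the genotypes overlapped. In CMP control mouse 1 had 525, while the other control mice had 2.03, 118 and 18.6 and the Cxadr-ko mice 11.9 to 49.2. Every GMP library nevertheless lay above every library of the other gates. The log2 difference in control mice was 8.58 ± 1.16 from LSK, 5.10 ± 1.16 from CMP and 7.31 ± 1.16 from MEP (adjusted p = 3.4e-05, 0.0083 and 0.0006). Prss34 had 3, 1, 30 and 38 reads in MEP of control mice 1 to 4, and 2 reads in CMP of control mouse 2. The size of the differences from MEP and CMP therefore also depends on the pseudocount of 1. Without control mouse 2 the difference from CMP was not called (adjusted p = 0.052). CMP was called above LSK in control mice (3.48 ± 1.16, adjusted p = 0.045), a call lost without control mouse 1, 3 or 4, with no filter on low values and with no block for the mouse, with values down to 2.09 and adjusted p up to 0.22. In Cxadr-ko mice it was not called (1.35, 95% interval -0.41 to 3.11).

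**Figure D2:**
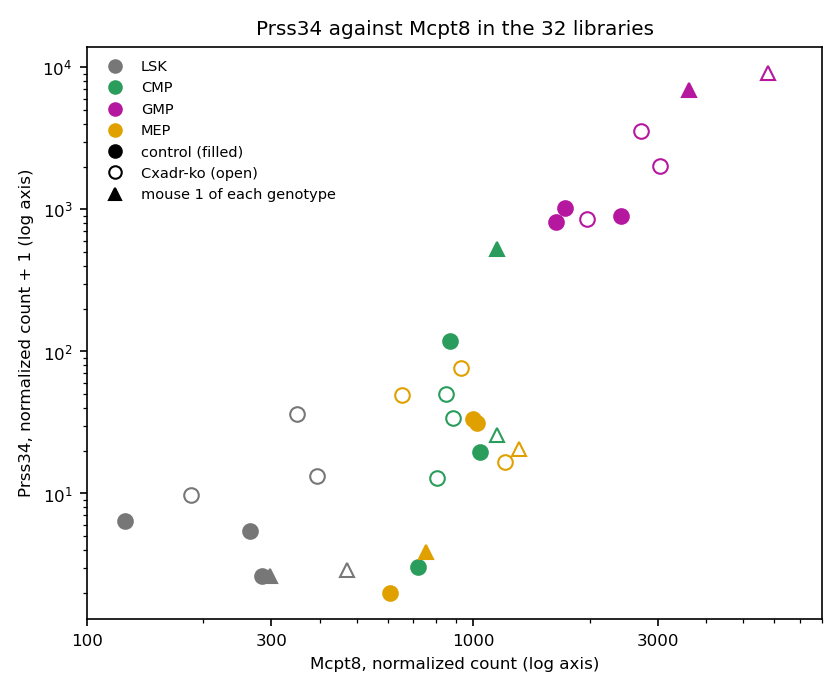
Prss34 (normalized count + 1) against Mcpt8 (normalized count), both on log axes, 1 point per library. GMP libraries lie apart at the top, with Prss34 from 810.3 to 9134, and the 2 highest are mouse 1 of each genotype.

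Mcpt8 in GMP was 3620.4, 1641, 2414 and 1725 in control mice 1 to 4 and 5815, 3037, 1973 and 2714 in Cxadr-ko mice 1 to 4. Mouse 1 of each genotype was again the highest of its group. The gene was called higher in GMP than in each other gate in both genotypes, with log2 differences of 3.27 ± 0.18, 1.26 ± 0.18 and 1.43 ± 0.18 from LSK, CMP and MEP in control mice (adjusted p = 5.7e-09, 0.00031 and 0.0001). MEP and CMP could not be ordered, MEP being higher in 4 of 8 mice. Their difference was -0.17 in control mice (95% interval -0.56 to 0.22) and 0.12 in Cxadr-ko mice (-0.41 to 0.64).

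Cpa3 (chr3:20215620-20242181, minus strand) had the highest level per length of the 8 in GMP. Its medians were 8071 in GMP, 5269.9 in MEP, 4765 in CMP and 554 in LSK. In GMP control mice 1 to 4 had 6043, 7558, 8849.8 and 8572 normalized counts and Cxadr-ko mice 1 to 4 had 7571, 7376, 10157 and 12983, with overlap between the genotypes. Mir7007, a microRNA gene within Cpa3 on the same strand, did not exceed 15.9. Within mice GMP exceeded MEP by 1.09 to 1.86 times and CMP by 1.55 to 2.58 times. Its GMP and MEP libraries overlapped, the highest MEP library being that of Cxadr-ko mouse 4 (10725). The log2 difference between GMP and MEP was 0.55 ± 0.13 in control mice (adjusted p = 0.0085; 0.057 with no block for the mouse) and 0.53 ± 0.16 in Cxadr-ko mice (adjusted p = 0.056). The latter was called without Cxadr-ko mouse 4 (adjusted p = 0.012) and by DESeq2 (0.043).

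Hdc (chr2:126593667-126619299, minus strand) was graded over the gates, with medians of 2084 in GMP, 851 in MEP, 696 in CMP and 90 in LSK. In GMP it was 1981, 1832, 1917 and 2146 in control mice 1 to 4 and 2169, 2123, 2045 and 3775 in Cxadr-ko mice 1 to 4. Cxadr-ko mouse 4 stood above the other mice. All 8 GMP libraries lay above the other gates, and MEP exceeded CMP in 8 of 8 mice, by 1.03 to 1.45 times. The difference between MEP and CMP was not called in either genotype (log2 0.23, 95% interval -0.02 to 0.49, in control mice). The difference of GMP from MEP was 1.33 ± 0.12 and from CMP 1.56 ± 0.12 in control mice (adjusted p = 5.1e-06 and 1.1e-06).

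Csrp3 (chr7:48830398-48848033, minus strand) was nearly absent from LSK, at 0 to 9.57 normalized counts. Its medians were 137 in CMP, 689.5 in GMP and 349 in MEP. GMP values were 286, 581, 615 and 764 in control mice 1 to 4 and 509.8, 1031, 1228 and 1034 in Cxadr-ko mice 1 to 4. Mouse 1 had the lowest value of its group in 6 of 6 groups of the CMP, GMP and MEP gates. MEP exceeded CMP in 8 of 8 mice, by 1.67 to 3.05 times, and the log2 difference in control mice was 1.35 ± 0.23 (adjusted p = 0.0595). It was called by edgeR, by DESeq2 and with a pseudocount of 5. The difference of GMP from MEP was called in control mice (0.73 ± 0.23, adjusted p = 0.048), but not without control mouse 2, 3 or 4, under quantile normalization, with no filter on low values or with no block for the mouse (adjusted p up to 0.19). In Cxadr-ko mice it was 1.59 ± 0.46 (adjusted p = 0.0486), and this call was lost without Cxadr-ko mouse 1, 2 or 3, with no filter and with no block, with adjusted p up to 0.21. The difference of GMP from CMP in Cxadr-ko mice, 2.5 ± 0.46, was called (adjusted p = 0.0049), but not without Cxadr-ko mouse 1 (adjusted p = 0.058).

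**Figure D3:**
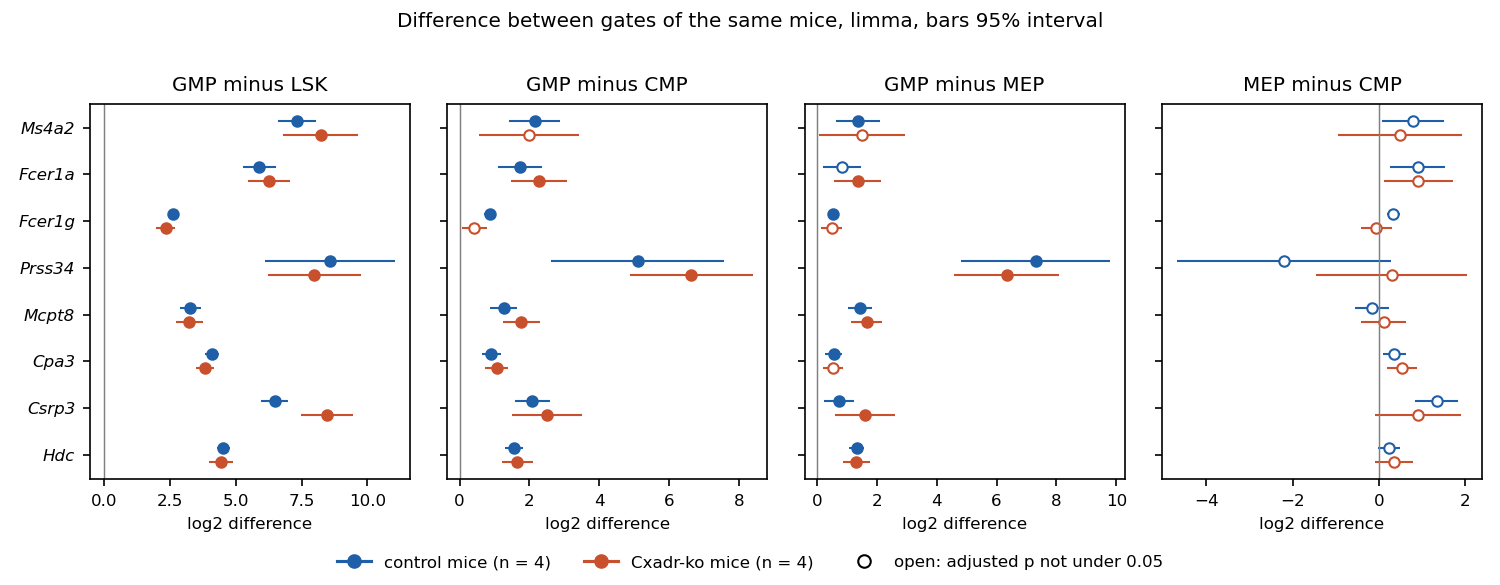
Log2 differences between gates of the same mice for the 8 genes, with 95% intervals, in control (blue) and Cxadr-ko (orange) mice, 4 each. Open points did not reach an adjusted p under 0.05. GMP minus LSK ranges from 2.62 (Fcer1g) to 8.58 (Prss34) in control mice, and no point of MEP minus CMP is filled. Ms4a2, Prss34 and Csrp3 rest on few reads in LSK, and Prss34 also in some CMP and MEP libraries of control mice.

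Between genes, levels were compared per kilobase of merged exons. In GMP the median over 8 mice was 5321 normalized counts per kb for Cpa3, 3712 for Fcer1g, 2569 for Mcpt8, 1245 for Prss34, 961 for Fcer1a, 498 for Ms4a2, 326 for Hdc and 258 for Csrp3. Each pair of neighbours in this order overlapped in range. Prss34, from 664 to 7487 per kb, overlapped all 3 genes above it, and Cpa3 ran from 3983 to 8558.

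Other genes of mature mast cells and basophils were described by lists, beside 41.9% of all 17218 genes called in either direction between GMP and LSK of control mice, 14.2% between GMP and CMP and 14.9% between GMP and MEP. Genes of the lists are given for control mice unless stated. A gene called in 1 genotype only was not thereby tested for a difference between genotypes. Of 11 mast cell proteases, 2 passed the filter on low values in the 16 libraries of control mice. Ctsg, the gene of cathepsin G, which neutrophil precursors also make, was 3.57 ± 0.10 higher in GMP than in LSK on the log2 scale (adjusted p = 3.7e-12), and Gzmb, the gene of granzyme B, 6.15 ± 1.08 higher (adjusted p = 0.00037). In Cxadr-ko mice Ctsg was called between GMP and LSK and Gzmb was not. Among the untested genes, chosen after their values were seen, Cma1, Mcpt4 and Tpsb2, which encode connective tissue mast cell chymases and a tryptase, did not exceed 12.9, 2.03 and 5.14 normalized counts in any library. Of 18 FceRI signalling genes 2 were called higher and 7 lower in GMP than in LSK in control mice (median log2 difference -0.16), 0 and 3 against CMP, and 0 and 5 against MEP. Lat, the adaptor downstream of the receptor, was lower in each of these comparisons, with log2 differences of -2.83 ± 0.14, -1.42 ± 0.14 and -1.93 ± 0.14 (adjusted p = 2.3e-09, 1.5e-05 and 7.8e-07). Lcp2, the gene of the adaptor SLP-76, was lower in GMP than in LSK (-1.20 ± 0.13, adjusted p = 4.1e-06), and Grap2, the gene of a further adaptor, was lower than in MEP (-2.12 ± 0.67, adjusted p = 0.047). The 2 genes called higher than in LSK were Pik3cd, a kinase gene (0.46 ± 0.15, adjusted p = 0.027), and Itpr1, a calcium channel gene (0.43 ± 0.14, adjusted p = 0.024). In Cxadr-ko mice neither was called, and Btk was the 1 gene called higher than in LSK (0.25 ± 0.09, adjusted p = 0.040). Lat was again called lower in each comparison.

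Of 12 histamine and lipid mediator genes 11 were tested. Against LSK 2 were called higher and 6 lower in GMP of control mice, with a median of -0.86. Alox5, which encodes arachidonate 5-lipoxygenase, was 4.25 ± 0.36 higher (adjusted p = 3.2e-07). Hpgds, the gene of a prostaglandin D synthase, was lower (-4.42 ± 0.90, adjusted p = 0.0012), and so was Ptgs2, a cyclooxygenase gene (-3.03 ± 0.20, adjusted p = 3.5e-08). Ltc4s, the gene of leukotriene C4 synthase, was lower than in CMP and in MEP (-1.35 ± 0.20 and -1.23 ± 0.20, adjusted p = 0.00045 and 0.00088). In Cxadr-ko mice Ltc4s was called in neither comparison. Srgn, which encodes the granule proteoglycan serglycin, was higher in GMP than in LSK, CMP and MEP by 0.39, 0.40 and 0.29 on the log2 scale (SE 0.05 each, adjusted p up to 0.0012). Of 15 transcription factors 5 were called higher and 5 lower in GMP than in LSK, with a median of -0.18. Cebpa, a myeloid factor, was 2.22 ± 0.15 higher and Meis1, a stem cell factor, was lower (-2.49 ± 0.12; adjusted p = 2.8e-08 and 1e-09). Against MEP 2 were called higher and 5 lower. Zfpm1, which encodes the GATA partner FOG1, was lower than in MEP (-1.23 ± 0.31, adjusted p = 0.015). For Gata1 and Gata2, chosen after their values were seen, levels are given. Gata2, a factor of both lineages, averaged 405 ± 148 (SD, n = 4) normalized counts in control GMP and 683 ± 122 in control MEP, and Gata1 147 ± 62.0 and 274 ± 55.9. Mitf, of the same list, went the other way in Cxadr-ko mice, where it was higher in GMP than in MEP (1.67 ± 0.32, adjusted p = 0.0058). In control mice Mitf was not called higher in GMP than in MEP. Of 20 surface and cytokine receptors 17 were tested, and 10 were called higher and 4 lower in GMP than in LSK, with a median of 0.62. Cd200r3, a receptor found on basophils and mast cells, was 4.15 ± 0.91 higher (adjusted p = 0.002), and Ptger3, a prostaglandin E2 receptor gene, was lower (-1.83 ± 0.24, adjusted p = 2.1e-05). Cd34, a progenitor surface marker, was lower in GMP than in CMP (-0.70 ± 0.06, adjusted p = 2.4e-06), and Itgb7, an integrin gene of mast cell progenitors, was lower than in MEP (-1.02 ± 0.14, adjusted p = 0.00022). Of 16 other mature mast cell and basophil genes 12 were tested, and 5 were called higher and 3 lower, with a median of 1.35.

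Eosinophil markers and markers of neutrophil and monocyte progenitors were also highest in GMP, whereas those of mature neutrophils were not. The 9 eosinophil markers summed to 1929 to 3497 normalized counts in control GMP and 1165 to 7118 in Cxadr-ko GMP, with medians of 2964 and 1250.5. In the other gates they summed to at most 363. Prg2, which encodes the eosinophil major basic protein and is also found in basophils and mast cells, averaged 2169 ± 546 in control GMP and 7.14 ± 10.9 in control MEP. The 10 neutrophil and monocyte progenitor markers summed to 239260 to 386940 in GMP and to at most 101410 elsewhere. Of 8 mature neutrophil markers 8 were called higher in GMP than in LSK in both genotypes. Against CMP and MEP none was called, with median log2 differences of -0.14 and -0.26 in control mice and of -0.97 and 0.52 in Cxadr-ko mice. The part of these cells in the values of the 8 genes was not tested.

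Between genotypes none of the 8 genes was called in any gate, beside 0.0433%, 0.0254%, 0.0192% and 0.0253% of all genes in LSK, CMP, GMP and MEP. Of the 8 all were tested in CMP, GMP and MEP, and 5 in LSK, where Ms4a2, Prss34 and Csrp3 did not pass the filter of 10 normalized counts in 4 libraries. The Cxadr-ko value was higher for 5 of 5 in LSK, 6 of 8 in CMP, 7 of 8 in GMP and 6 of 8 in MEP, with median log2 differences of 0.41, 0.17, 0.56 and 0.28. Over all genes tested the medians lay between -0.01 and 0.00. An unadjusted p under 0.05 was found for 2 of 5 in LSK, beside 1387 of all 16166 genes, for 2 of 8 in CMP, beside 1144 of 15737, for 3 of 8 in GMP, beside 882 of 15593, and for 0 of 8 in MEP, beside 938 of 15812. edgeR called none in any gate, and DESeq2 called 2 in CMP and 1 in GMP. In the mean over the 4 gates none was called, beside 0.0217% of 18475 genes, with 7 of 8 values higher in Cxadr-ko mice, a median of 0.31, 1 gene with an unadjusted p under 0.05, 0 calls by edgeR and 1 by DESeq2.

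**Figure D4:**
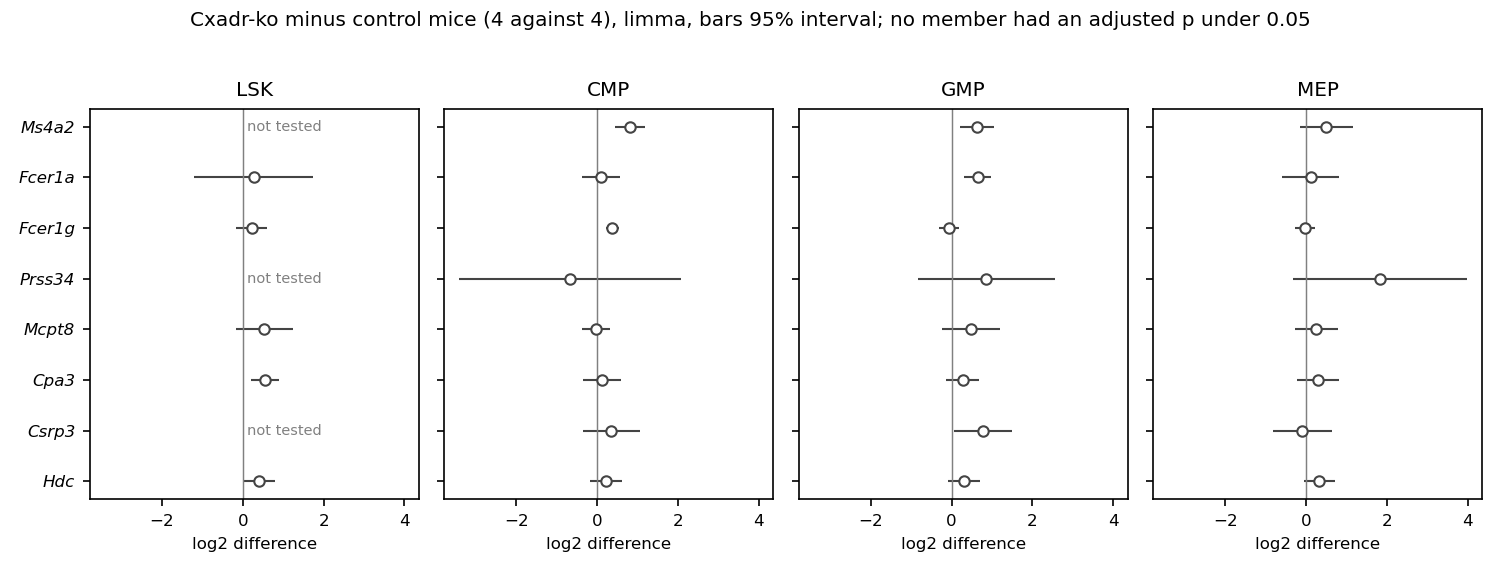
Log2 difference between Cxadr-ko and control mice (4 against 4) for the 8 genes in each gate, with 95% intervals. No gene had an adjusted p under 0.05. Intervals lie above 0 for Ms4a2 (0.43 to 1.18) and Fcer1g in CMP, and for Fcer1a (0.32 to 0.98), Ms4a2 and Csrp3 in GMP. The same holds for Cpa3 and Hdc in LSK.

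The genes whose genotypes did not overlap were chains of FceRI, but in no gate were all of its chains without overlap. Ms4a2 in CMP was 245, 196, 354 and 227 normalized counts in control mice 1 to 4 and 397, 409, 444.4 and 500.5 in Cxadr-ko mice 1 to 4. The groups did not overlap. The log2 difference was 0.81 ± 0.17 (95% interval 0.43 to 1.18), with an adjusted p of 0.50 by limma and of 0.017 by DESeq2. Fcer1g in CMP was 1835, 1735, 1881 and 1988 in control mice and 2524, 2509.7, 2394 and 2199.5 in Cxadr-ko mice, again without overlap. It differed by 0.37 ± 0.07 (0.21 to 0.53), with an adjusted p of 0.48 by limma and of 0.002 by DESeq2. In CMP these 2 of the 8 genes had all Cxadr-ko libraries above all control libraries, as had 2.36% of all genes tested. Fcer1a in CMP overlapped between genotypes and differed by 0.10 (-0.36 to 0.57), with an adjusted p of 0.94 by limma.

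In GMP Fcer1a was 827, 652, 918 and 911 in control mice and 1001, 1432, 1428 and 1335 in Cxadr-ko mice. The groups did not overlap, and the log2 difference was 0.65 ± 0.15 (0.32 to 0.98), with an adjusted p of 0.87 by limma and of 0.018 by DESeq2. Ms4a2 in GMP was 1107, 778, 1264 and 1392 in control mice and 1411, 1498, 2016 and 2089.7 in Cxadr-ko mice, with a difference of 0.64 ± 0.19 (0.22 to 1.06; adjusted p = 0.87). The highest control library and the lowest Cxadr-ko library were close, but the groups did not overlap. These were the 2 of 8 genes without overlap in GMP, where 1.41% of all genes had all Cxadr-ko libraries above all control libraries. Fcer1g in GMP differed by -0.07 (-0.31 to 0.17). In LSK and MEP all of the 8 genes that were tested overlapped between genotypes, and 2.93% and 1.58% of all genes had all Cxadr-ko libraries above all control libraries.

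Of the other genes, Csrp3 in GMP differed by 0.77 (0.06 to 1.49; adjusted p = 0.87). In LSK, Cpa3 differed by 0.56 (0.21 to 0.91; adjusted p = 0.43) and Hdc by 0.41 (0.02 to 0.80; adjusted p = 0.56). Hdc in the mean over gates differed by 0.32 (0.09 to 0.54; adjusted p = 0.57). Prss34 had wide intervals, which in MEP ran from -0.33 to 3.99, in GMP from -0.84 to 2.56 and in CMP from -3.42 to 2.07, and its CMP difference of -0.67 became 0.55 without mouse 1 of each genotype. Mcpt8 differed by 0.48 in GMP (-0.23 to 1.19) and by -0.03 in CMP (-0.37 to 0.31). The difference between genotypes was not called as varying between gates for any of the 8 genes (limma F test, lowest adjusted p = 0.742, for Csrp3), nor for any of 18475 genes. Of these, 1082 had an unadjusted p under 0.05, 1 of the 8 among them, and edgeR also called 0 of the 8.

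None of the genes of the lists above was called between genotypes. Marker lists of other cells differed in value in both directions. All 8 mature neutrophil markers were higher in CMP, with a median log2 difference of 1.86, and their sums were 11370 to 109500 normalized counts in Cxadr-ko against 1446 to 19611 in control mice. They were also higher, 8 of 8, in LSK and GMP, with medians of 0.94 and 0.84. In MEP their sums were 3232 to 27747 in Cxadr-ko and 629 to 114120 in control mice, with group medians of 8975 and 9095. Of the neutrophil and monocyte progenitor markers 10 of 10 were higher in CMP, with a median of 0.32. Of the B lineage markers 7 of 7 tested were higher in CMP and 6 of 6 in GMP, with medians of 1.42 and 1.24, and their GMP sums were 3805 to 87814 in Cxadr-ko and 3475 to 7015 in control mice. The group medians of these GMP sums were 5917 and 3761.5. No gene of the neutrophil lists was at 0 in all 4 libraries of a group. Of the dendritic and macrophage markers 6 of 6 tested were higher in GMP, with sums of 21437 to 38419 against 7639 to 21973. In MEP their sums were 26865 to 73401 against 17846 to 32427. Of the erythroid markers 6 of 6 tested were higher in GMP, with a median of 1.12 and sums of 350.2 to 776 against 265 to 458. Stem and multipotent progenitor markers were higher for 1 of 8 in LSK, 2 of 8 in CMP and 1 of 8 in MEP, with medians of -0.16, -0.26 and -0.25. In GMP their sums had group medians of 2949 in Cxadr-ko and 2618 in control mice. Megakaryocyte markers were higher for 2 of 7 tested in LSK and 1 of 6 each in CMP and MEP, with medians of -0.35, -0.19 and -0.35. Their GMP sums had group medians of 405 in Cxadr-ko and 349 in control mice. The part of these cells in the genotype differences of the 8 genes was not tested.

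Over the 32 libraries, which fall into the same 4 gates for every gene, Pearson's r of log2(normalized count + 1) was positive for 28 of 28 pairs, from 0.616 to 0.975 with a median of 0.937. Prss34 had the lowest values, 0.62 to 0.83. With the mean of each of the 8 groups subtracted, the median fell to 0.188 and 23 of 28 pairs were positive. Ms4a2 then went with Csrp3 (0.717) and Fcer1a (0.664), and Mcpt8 ran against Csrp3 (-0.372). The log2 SD of Ms4a2 within groups was 1.19 in control LSK and 2.24 in Cxadr-ko LSK. In the other gates it was 0.15 to 0.64. Among the LSK libraries Ms4a2 and Csrp3 were both highest in Cxadr-ko mouse 3, at only 56 and 10 reads. Correlations without LSK were not computed. These are descriptions over libraries that share mice and gates.

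**Figure D5:**
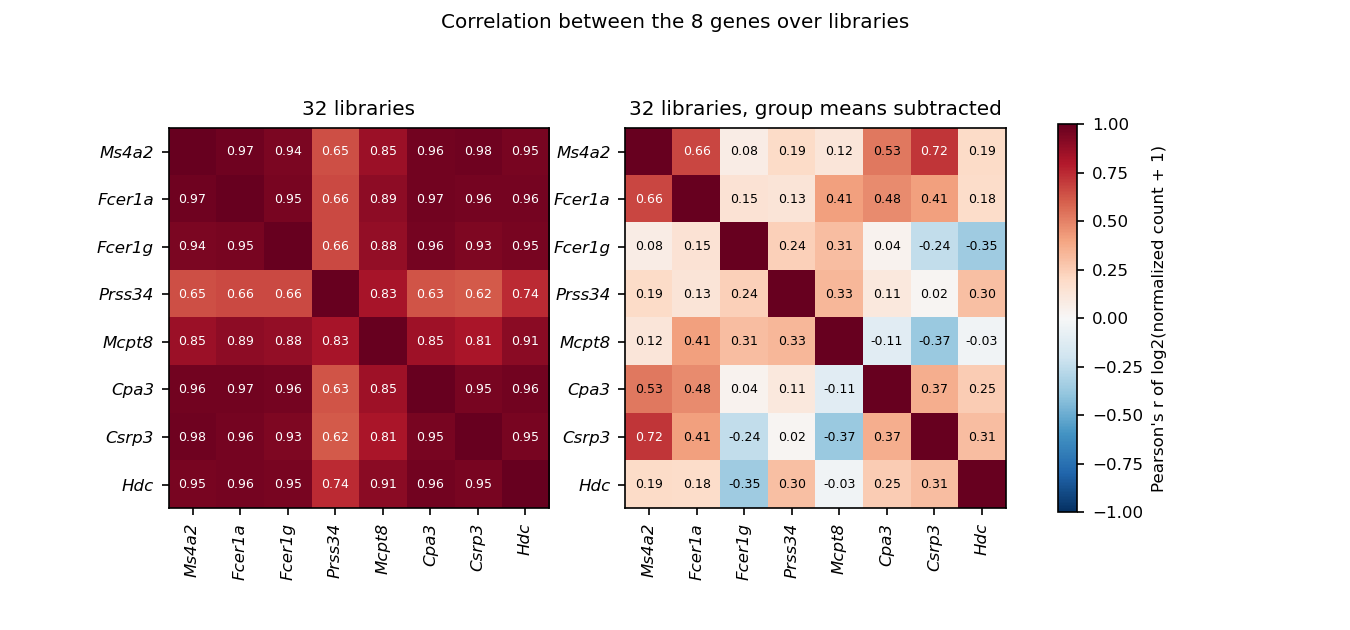
Pearson's r between the 8 genes over 32 libraries, on log2(normalized count + 1), as measured (left) and with group means subtracted (right). All 28 pairs are positive on the left, from 0.616 to 0.975, and 23 of 28 on the right, from -0.372 to 0.717.

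Among 18475 genes, those most like Ms4a2 over the 32 libraries were Csrp3 (r = 0.975), Fcer1a (0.972) and Cpa3 (0.964), so that its nearest neighbours were all among the 8. The same held for Fcer1a (Ms4a2, Cpa3 and Csrp3, 0.959 to 0.972) and for Cpa3 (Fcer1a, Ms4a2 and Hdc, 0.962 to 0.968). The 8 genes were chosen with earlier results of these data known, so their likeness is not independent of that choice. Csrp3 had 2210010C04Rik (0.968) between Ms4a2 and Fcer1a. Fcer1g was nearest to Tyrobp (0.962), which encodes another signalling adaptor of myeloid receptors. Mcpt8 was nearest to Ctsg (0.952), Igsf6 (0.945) and Atp8b4 (0.944), Prss34 to Lta4h (0.900), P4hb (0.897) and Alas1 (0.890), and Hdc to Ap3s1 (0.979), Gm17149 (0.976) and Gng12 (0.973). With group means subtracted the nearest were Igkv4-72 for Ms4a2 (0.755), Ms4a2 for Fcer1a (0.664), Rad9a for Fcer1g (0.684), Xpnpep1 for Prss34 (0.791), Serinc3 for Mcpt8 (0.728), Rap2a for Cpa3 (0.724), 4933406P04Rik for Csrp3 (0.746) and Klhl26 for Hdc (0.779). For Ms4a2, Prss34 and Csrp3 these values include LSK libraries that rest on few reads.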

How the data were processed

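RNA of 4 gates from each of 8 mice was sequenced. The authors deposited normalized counts per gene, a signal in which reads are divided by a size factor per library. STAR, DESeq2, GRCm38 and mm10 are named per the submitters' processing notes. No source used here names the read counter or the annotation release. All 765992 values above 0 were whole multiples of 1 read per library, within 0.001 read. Of 55487 gene IDs 55141 matched GENCODE M21.

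Genes with at least 10 normalized counts in at least 4 of the libraries fitted were tested with limma 3.58.1 (R 4.3.3) on log2(normalized count + 1), which understates differences of low genes, with Benjamini-Hochberg adjustment over all genes tested and a threshold of 0.05. Gates were compared within each genotype with the mouse as a block, since the 4 gates come from the same animals. Deviations from group means correlated at 0.05 to 0.27 between gates of a mouse. Genotypes were compared as 4 against 4 mice per gate, in the mean over gates and by an F test over gates. edgeR 4.0.16 and DESeq2 1.42.0 were run on the recovered reads as alternatives, beside quantile normalization, a pseudocount of 5, no filter, the other block setting and leaving out mice. The tests were also run on simulated counts with known changes. These counts held no effect of the mouse, so they do not check the block for the mouse. The 8 genes and the lists were chosen with earlier results of these data known. List genes named with tests were among the 2 called genes of largest difference in each direction, for each list and each comparison of GMP with another gate, and likeness was ranked by Pearson's r. Of the 48 pairs of libraries within groups, none differed by less than sampling noise.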

Additional observations from a re-analysis of the deposited data

Results flagged for a closer look

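In 8 of the 64 groups of 4 libraries, 1 for each gene, gate and genotype, a library lay far from the other 3 by Dixon's criterion, which chance meets in about 1 in 20 groups. Ms4a2 was 53.6 normalized counts in LSK of Cxadr-ko mouse 3, and Csrp3 was 9.57 in the same library. Fcer1a was 338 in CMP of Cxadr-ko mouse 2. Prss34 was 6886 in GMP of control mouse 1. Hdc was 3775 in GMP of Cxadr-ko mouse 4 and 1061 in MEP of control mouse 3. In the low direction, Csrp3 was 70.0 in CMP of Cxadr-ko mouse 1 and Hdc was 82.2 in LSK of Cxadr-ko mouse 4.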

How the results depend on the processing

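DESeq2 on recovered reads called 2 of the 8 genes between genotypes in CMP (Ms4a2 and Fcer1g), 1 in GMP (Fcer1a) and 1 in the mean over gates (Ms4a2), where limma called 0. It also called 95, 39, 14 and 24 genes of the whole table in LSK, CMP, GMP and MEP, where limma called 7, 4, 3 and 4 and edgeR 6, 4, 3 and 4. DESeq2 was not run for the F test over gates. Between MEP and CMP of control mice 1 of the 8 was called with a pseudocount of 5, 1 by edgeR and 4 by DESeq2. In that comparison edgeR called 6 and DESeq2 214 genes of the whole table. Between GMP and MEP of Cxadr-ko mice 3 were called with no filter on low values. Leaving out 1 mouse at a time gave 3 to 5 calls there, 5 to 7 between GMP and CMP of Cxadr-ko mice, 5 to 7 between GMP and MEP of control mice, and 7 to 8 each between GMP and CMP and between CMP and LSK of control mice.

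Differences between genotypes changed sign for genes that were not called. Without mouse 1 of each genotype Prss34 in CMP was 0.55, Csrp3 in MEP 0.19 and Csrp3 in the mean over gates 0.15. Csrp3 in MEP was 0.0302 by edgeR and 0.0304 by DESeq2, and in the mean over gates 0.0225 under quantile normalization, 0.14 with a pseudocount of 5, 0.55 by edgeR and 0.55 by DESeq2. Leaving out 1 mouse at a time, Fcer1a ranged from -0.26 to 0.78 in LSK, -0.11 to 0.24 in CMP and -0.0931 to 0.39 in MEP, Prss34 from -1.96 to 0.52 in CMP, Mcpt8 from -0.15 to 0.0750 and Cpa3 from -0.0188 to 0.33 in CMP, Fcer1g from -0.0791 to 0.0757 in MEP, and Csrp3 from -0.25 to 0.30 in MEP and -0.31 to 0.25 in the mean over gates. Between MEP and CMP of Cxadr-ko mice Fcer1g ranged from -0.14 to 0.0629 and Prss34 from -0.46 to 0.74. The cause was not tested.

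In the labels, mice of the 2 genotypes share only a number. Same-numbered mice correlated at 0.14 to 0.51 for mouse 1, which matched its own number best in all 4 gates, and at -0.08 to 0.10 for the others. Mouse 4 also matched its own number best in GMP and MEP. The labels name nothing that mouse 1 of both genotypes has in common. With the replicate block 0 of the 8 genes were called between genotypes in any gate, and 4, 6, 3 and 3 genes of the whole table. Single reads limit values in LSK, where Ms4a2, Prss34 and Csrp3 rest on few reads. They also limit Prss34 in some CMP and MEP libraries of control mice.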
